A study of Oryza sativa Japonica Group with 6 samples.

Results

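In rice endosperm, 68 of 29907 mRNA rows had at least 3 FPKM in every high temperature sample and at most 1 FPKM in every normal temperature sample. FPKM is a fragment count scaled to transcript length and to the library's mapped fragments. These 68 mRNAs, or 0.227% of the mRNA rows, were chosen from their values in all 6 samples. Their levels and ratios between the temperatures are therefore given as a description, with no test. The endosperm, the tissue that fills the rice grain with starch and storage protein, was sampled 10 days after pollination from the Japonica cultivar NingJing1 in every case. Field-grown plants had been moved when booting into growth chambers. Daytime was 36 °C and night 33 °C for the 3 high temperature samples, and daytime 28 °C and night 25 °C for the 3 normal temperature samples. The labels do not state separate plants, so p-values here measure the spread between these samples, which may be technical. In bulk tissue, a change in the share of a cell type cannot be told apart from a change in RNA per cell.

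Heat during grain filling is known to disturb starch deposition and leave the grain chalky. Heat-stressed plant tissue makes heat shock proteins and changes hormone turnover, and abscisic acid is a main hormone of seed filling and dormancy. Rice also makes diterpenoid and phenylpropanoid compounds that act in defence, through enzymes whose genes are often silent until the plant is stressed.

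The name "detected at high temperature alone" was not borne out by the values. Of the 68 mRNAs, 3 were listed at 0 in each normal temperature sample, 1 at 0 in 2 of them and 3 at 0 in 1 of them. The other 61 had a value above 0 in all 3 normal temperature samples, and 50 were above 0.1 FPKM in each. They are therefore best described as mRNAs that were low at normal temperature and clearly present at high temperature.

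Their mean at high temperature ran from 3.07 to 67.6 FPKM, with a median over the 68 mRNAs of 5.53 FPKM. Their mean at normal temperature ran from 0 to 0.93 FPKM, with a median of 0.357 FPKM. At high temperature, 29 of the 68 had a mean under 5 FPKM, 19 had from 5 to under 10, 10 had from 10 to under 20, 6 had from 20 to under 50 and 4 had more. The ratio of the high to the normal temperature mean had a median of 15.8 over the 65 mRNAs with a value above 0 at normal temperature. It exceeded 10 in 47 of the 65, 50 in 13 and 100 in 11. With values rounded to 2 decimals, ratios over levels near 0 are coarse, and such a ratio is not a measure of size.

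**Figure D1:**
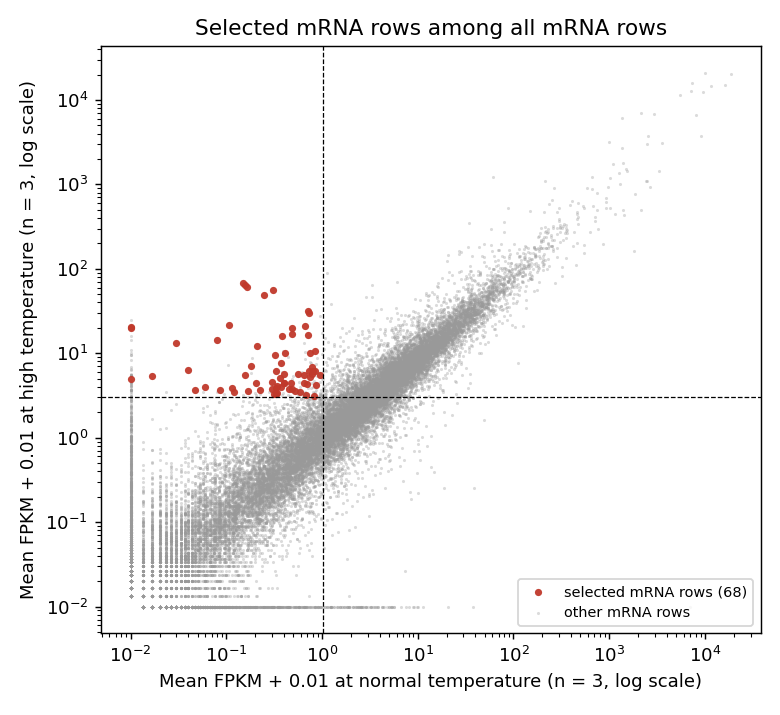
Each point is 1 mRNA row, placed by its mean FPKM + 0.01 at high temperature (vertical, n = 3) and at normal temperature (horizontal, n = 3), both on log scales. The 68 selected rows (red) lie above 3 FPKM at high temperature and left of 1 FPKM at normal temperature (dashed lines), at the edge of the band of the other rows (grey). A further 124 grey rows share that corner by their means, with at least 1 sample beyond a limit.

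The mirrored rule took 24 mRNA rows, or 0.0802%, with at least 3 FPKM in each normal and at most 1 FPKM in each high temperature sample. Of the 14794 mRNA rows that were at or under 1 FPKM in each normal temperature sample, 13445 were also at or under 1 FPKM in each high temperature sample. The 68 mRNAs summed to 802, 798 and 817 FPKM in the high temperature samples, against 26.99, 26.24 and 26.74 FPKM in the normal temperature samples. That was 0.211% to 0.214% of the total FPKM of a high temperature sample.

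A stretch of chromosome 6 held the most abundant of them. In locus order, 7 mRNA rows that follow each other directly in the table, from LOC_Os06g31800 to LOC_Os06g32240, were all among the 68. These identifiers carry no gene name in the deposited data. The reference gene table was searched by symbol alone, so they were not looked up in it. Together they summed to 328.5, 326 and 343 FPKM in the high temperature samples, against 1.02, 1.51 and 0.74 FPKM in the normal temperature samples. They made up 40.8% to 42.0% of the summed FPKM of the 68 mRNAs at high temperature.

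The highest of the 7 was LOC_Os06g32020, with 67.02, 69.82 and 66.03 FPKM in the high temperature samples, against 0.16, 0.15 and 0.11 FPKM in the normal temperature samples. LOC_Os06g31960 had 59.76, 62.27 and 59.77 FPKM in the high temperature samples, against 0.10, 0.25 and 0.11 FPKM in the normal temperature samples. In both, the 3 high temperature samples lay close together. LOC_Os06g31890 was similar, with 56.79, 57.43 and 54.47 FPKM in the high temperature samples, against 0.35, 0.35 and 0.19 FPKM in the normal temperature samples. LOC_Os06g31800, the first of the stretch, was lower, with 14.06, 13.09 and 12.29 FPKM in the high temperature samples, against 0.01, 0.05 and 0 FPKM in the normal temperature samples. These 4 rows had coefficients of variation (SD over mean) between 2.39% and 6.74% at high temperature.

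The other three rows of the stretch varied more between the high temperature samples. LOC_Os06g31930 had 51.75, 51.97 and 91.63 FPKM in the high temperature samples, against 0.09, 0.24 and 0.11 FPKM in the normal temperature samples. LOC_Os06g32160 had 55.74, 56.70 and 32.78 FPKM in the high temperature samples, against 0.25, 0.35 and 0.11 FPKM in the normal temperature samples. High temperature sample 3 was thus the highest for LOC_Os06g31930 and the lowest for LOC_Os06g32160. The sum of these 2 rows was 107.5, 108.7 and 124 FPKM in the high temperature samples, with a coefficient of variation of 8.32%, against 35.3% for LOC_Os06g31930 and 28.0% for LOC_Os06g32160 alone. The sum was formed after their values were seen. LOC_Os06g32240 had 23.41, 14.66 and 25.99 FPKM in the high temperature samples, against 0.06, 0.12 and 0.11 FPKM in the normal temperature samples.

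Over all 7 rows, the summed level averaged 332 ± 9.17 FPKM at high temperature and 1.09 ± 0.390 FPKM at normal temperature (SD, n = 3 each). The coefficient of variation of the sum at high temperature was 2.76%, below that of each row except LOC_Os06g31960. Neighbouring copies of a gene can share reads, which the authors' quantification may split differently in each sample. Whether these rows share reads was not tested, and values of single rows in the stretch are uncertain for that reason.

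The stretch was bordered by rows at or near 0. The 3 listed rows before it, LOC_Os06g31240, LOC_Os06g31300 and LOC_Os06g31500, were at most 0.04 FPKM at high and at most 0.06 FPKM at normal temperature. The 4 listed rows after it were at most 0.25 FPKM at high and 0.16 FPKM at normal temperature. Farther out, LOC_Os06g31210 had 42.24, 40.39 and 47.65 FPKM in the high temperature samples, against 61.64, 58.87 and 69.04 FPKM in the normal temperature samples, so its samples were lower at high temperature. Beyond the rows near 0 on the other side, LOC_Os06g32610 had 6.57, 7.58 and 7.64 FPKM in the high temperature samples, against 0, 4.87 and 2.93 FPKM in the normal temperature samples.

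**Figure D2:**
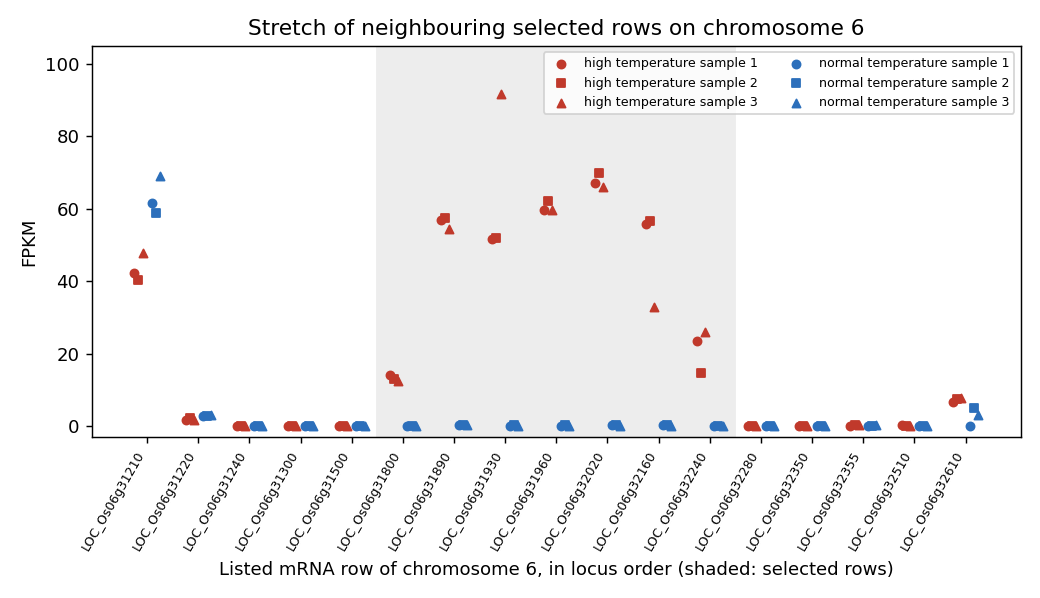
FPKM (vertical) of 17 neighbouring mRNA rows of chromosome 6 in locus order (horizontal), with red for the 3 high temperature samples, blue for the 3 normal temperature samples and a symbol for each sample number. The 7 shaded rows lie between 12.29 and 91.63 FPKM at high temperature and at or under 0.35 FPKM at normal temperature, and the rows directly on both sides are near 0.

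Outside that stretch, the highest mean at high temperature was 32.0 FPKM. It belonged to LOC_Os01g72900, with 30.70, 36.92 and 28.38 FPKM in the high temperature samples, against 0.70, 0.68 and 0.74 FPKM in the normal temperature samples. LOC_Os03g01700 had 23.43, 34.26 and 32.00 FPKM in the high temperature samples, against 0.81, 0.62 and 0.75 FPKM in the normal temperature samples. LOC_Os08g30510 had 20.82, 22.99 and 19.09 FPKM in the high temperature samples, against 0.68, 0.51 and 0.77 FPKM in the normal temperature samples. All 3 were measurable at normal temperature, in every sample, at levels between 0.51 and 0.81 FPKM.

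LOC_Os10g26430 averaged 19.8 ± 0.696 FPKM at high temperature and 0.48 ± 0.0458 FPKM at normal temperature (SD, n = 3 each). LOC_Os01g54810 averaged 16.8 ± 0.408 FPKM at high and 0.473 ± 0.150 FPKM at normal temperature. LOC_Os02g52010 averaged 16.3 ± 0.763 FPKM at high and 0.707 ± 0.0513 FPKM at normal temperature. All 3 varied little between the high temperature samples. LOC_Os03g51200, the last of the 15 highest, had 16.2 ± 0.576 FPKM at high and 0.370 ± 0.149 FPKM at normal temperature.

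The 3 mRNAs listed at 0 in every normal temperature sample differed in how even they were at high temperature. LOC_Os01g68660 had 19.50, 23.22 and 18.75 FPKM and LOC_Os04g31330 had 5.49, 4.03 and 5.16 FPKM in the high temperature samples. LOC_Os07g09420 had 26.63, 3.09 and 29.43 FPKM in the high temperature samples, so sample 2 lay far below the other two. A listed 0 can be a failed estimate, since genes with high levels in some samples were listed at 0 in others. No ratio is given for these 3 rows. LOC_Os01g67980 came close to them, with 5.39, 5.21 and 5.56 FPKM in the high temperature samples, against 0, 0.01 and 0.01 FPKM in the normal temperature samples.

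**Figure D3:**
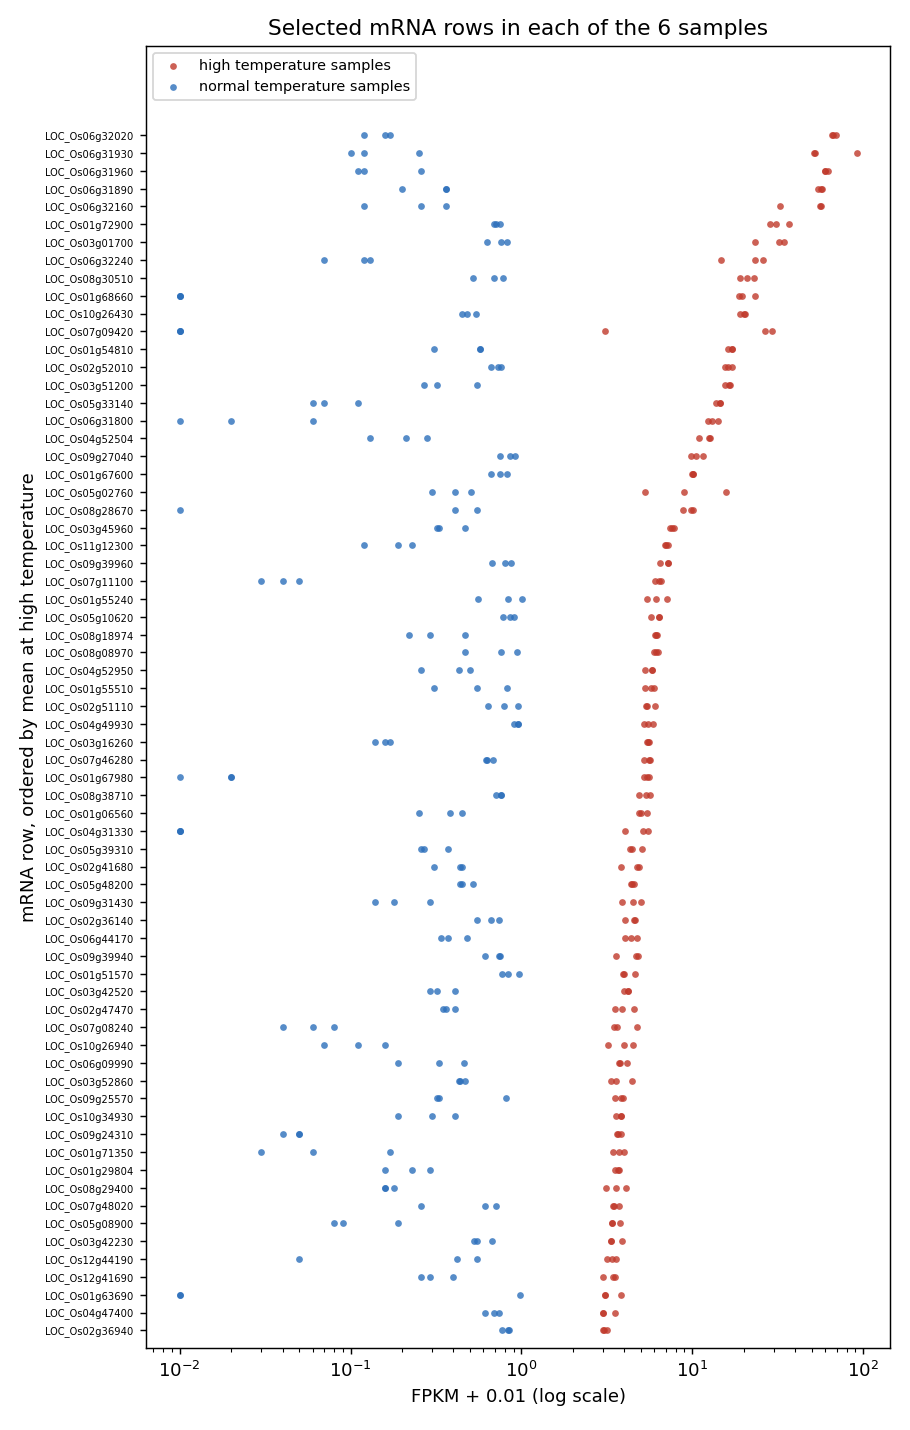
FPKM + 0.01 (horizontal, log scale) of the 68 selected mRNA rows (vertical, ordered by mean at high temperature) in the 3 high temperature samples (red) and the 3 normal temperature samples (blue). The red points of most rows lie close together, while LOC_Os07g09420 and LOC_Os05g02760 spread widely, and the blue points range from 0 to 1 FPKM.

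Most of the 68 were even across the high temperature samples. Their coefficient of variation had a median of 6.63% and was under 10% in 49 of the 68. The smallest spread among those with a mean of at least 5 FPKM was in LOC_Os01g67600, with 10.08, 9.99 and 10.08 FPKM in the high temperature samples. LOC_Os08g18974, LOC_Os03g16260 and LOC_Os11g12300 followed, with coefficients of variation of 1.09%, 1.13% and 1.64%. It exceeded 20% in 5 of the 68, or 7.35%. Of these, 3 were in the chromosome 6 stretch, and the largest were in LOC_Os07g09420 (73.4%) and in LOC_Os05g02760 (53.1%). LOC_Os05g02760 had 5.27, 15.66 and 8.88 FPKM in the high temperature samples, against 0.29, 0.50 and 0.40 FPKM in the normal temperature samples. Among the 8548 other mRNA rows in the same range of means at high temperature, the median was 8.08% and 22.8% of rows exceeded 20%. The rule asked for 3 FPKM in each high temperature sample, which by itself removes rows with a low sample, so the 2 sets are given side by side and not compared.

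Rows just inside and just outside the limits differed little. The row nearest the upper limit at normal temperature was LOC_Os01g55240, with 7.07, 6.15 and 5.42 FPKM in the high temperature samples, against 0.83, 0.55 and 1 FPKM in the normal temperature samples. LOC_Os01g63690, LOC_Os01g51570, LOC_Os04g49930 and LOC_Os02g51110 followed, with a highest normal temperature value between 0.94 and 0.97 FPKM. Just outside lay LOC_Os06g36390, with 9.21, 9.34 and 7.83 FPKM in the high temperature samples, against 0.91, 0.72 and 1.01 FPKM in the normal temperature samples. LOC_Os08g42690, LOC_Os10g14180, LOC_Os12g08550 and LOC_Os04g33530 were next, at up to 1.06 FPKM. Nearest the lower limit at high temperature were LOC_Os02g36940 and LOC_Os04g47400, each with a lowest value of 3 FPKM, and LOC_Os12g41690 with 3.01 FPKM. Just outside that limit, LOC_Os07g34520 and LOC_Os11g02240 had a lowest value of 2.97 FPKM at high temperature, LOC_Os03g33090 had 2.92 FPKM, and LOC_Os02g04780 and LOC_Os03g06920 had 2.91 FPKM.

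Of 136 known rice genes on lists by function, written by hand from rice nomenclature, 126 had a row in the table and 3 were among the 68. A symbol is printed for an identifier where the reference gene table holds it once and on the chromosome that the identifier gives. The first of the 3 is KSL7 (LOC_Os02g36140), a diterpene synthase that makes the hydrocarbon from which phytocassane defence compounds are built. It had 4.61, 4.54 and 4.02 FPKM in the high temperature samples, against 0.73, 0.65 and 0.54 FPKM in the normal temperature samples. The groups were set apart by the rule, and within each group the values lay close together. ABA8OX1 (LOC_Os02g47470), an abscisic acid hydroxylase that starts the breakdown of the hormone, had 4.54, 3.88 and 3.53 FPKM in the high temperature samples, against 0.34, 0.35 and 0.40 FPKM in the normal temperature samples. The third, LOC_Os01g55240, was on the list of hormone metabolism genes, and its symbol was not found in the reference gene table.

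Another 5 of the 68 could be paired with a symbol, a choice made after their values were seen. LSI1 (LOC_Os02g51110), a silicon influx channel known from roots, had 5.33, 6.07 and 5.45 FPKM in the high temperature samples, against 0.94, 0.78 and 0.63 FPKM in the normal temperature samples. PDC1 (LOC_Os05g39310), a pyruvate decarboxylase of ethanol fermentation, had 4.29, 5.04 and 4.45 FPKM in the high temperature samples, against 0.25, 0.26 and 0.36 FPKM in the normal temperature samples. Both were several-fold above their normal temperature level in each high temperature sample, as the rule requires.

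LOX1.1 (LOC_Os03g52860), a lipoxygenase that adds oxygen to unsaturated fatty acids, had 3.56, 3.33 and 4.42 FPKM in the high temperature samples, against 0.42, 0.43 and 0.46 FPKM in the normal temperature samples. PAL06 (LOC_Os02g41680), a phenylalanine ammonia-lyase at the entry to phenylpropanoid synthesis, had 3.83, 4.84 and 4.71 FPKM in the high temperature samples, against 0.44, 0.43 and 0.30 FPKM in the normal temperature samples. BGLU30 (LOC_Os09g31430), a beta-glucosidase that removes glucose from conjugates, had 4.97, 4.49 and 3.87 FPKM in the high temperature samples, against 0.17, 0.28 and 0.13 FPKM in the normal temperature samples. PAL06 belongs to a family whose copies can share reads, so its level is uncertain. All 7 mRNAs with a symbol had means between 3.77 and 5.62 FPKM at high temperature, near or below the median of the 68.

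The other genes of these pathways were read against all mRNA rows tested. A test on log2(FPKM + 1) with limma called 2222 of 17050 rows higher at high temperature, or 13.0%, and 3887 lower, or 22.8%, at an adjusted p under 0.05 (Benjamini-Hochberg). The minimum for testing was a mean of 0.5 FPKM over the 6 samples. The rule's limit at high temperature is enough to take all 68 past it. They were chosen from these same values, so nothing is read from their own calls. The test gave 36.4% of calls as higher on the deposited scale, against 53.8% after trimmed-mean scaling, 43.3% after quantile normalization and 47.1% after rescaling without the 100 most abundant mRNA rows. Trimmed-mean scaling moved the median log2 fold change of all rows from -0.08 to 0.03.

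Besides ABA8OX1 and LOC_Os01g55240, 3 of the 13 hormone metabolism genes could be tested, with a median log2 fold change of 0.12 against -0.08 over all rows tested. NCED3 (LOC_Os03g44380), an enzyme of abscisic acid synthesis, rose to 1.48 ± 0.125 FPKM at high temperature, against 0.67 ± 0.0964 FPKM at normal temperature (SD, n = 3 each) (log2 fold change 0.57, standard error 0.08, limma adjusted p = 0.0041). ABA8OX2 (LOC_Os08g36860), a second abscisic acid hydroxylase, moved the other way. It had 11.29, 13.81 and 11.15 FPKM in the high temperature samples, against 21.84, 22.44 and 28.25 FPKM in the normal temperature samples (log2 fold change -0.94, standard error 0.13, limma adjusted p = 0.0043). At high temperature, ABA8OX2 was still above ABA8OX1 in each sample on the FPKM scale, which is per transcript length. ABA8OX3 (LOC_Os09g28390) was at most 0.29 FPKM at high and at most 0.36 FPKM at normal temperature and was not tested. GA20OX2 (LOC_Os01g66100), an enzyme of gibberellin synthesis, had 0.66 ± 0.154 FPKM at high and 0.523 ± 0.0808 FPKM at normal temperature and did not pass (limma adjusted p = 0.4).

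Of the 12 defence genes, 5 reached the minimum for testing, among them KSL7. KSL7 was chosen by the rule, and CPS4 reached the minimum through its high temperature level. Neither call is therefore read, and no median is given. PBZ1 (LOC_Os12g36880), a pathogenesis-related protein, rose to 61.1 ± 1.78 FPKM at high temperature, against 16.2 ± 0.580 FPKM at normal temperature, a log2 fold change of 1.86 (limma adjusted p = 2.6e-05). CPS4 (LOC_Os04g09900), which makes the precursor of momilactone diterpenoids, had 1.03, 0.97 and 0.87 FPKM in the high temperature samples, against 0.09, 0.08 and 0.07 FPKM in the normal temperature samples. CPS2 (LOC_Os02g36210), which makes the substrate of KSL7, had 1.90, 1.87 and 2.08 FPKM in the high temperature samples, against 1.29, 1.19 and 1.54 FPKM in the normal temperature samples. Its log2 fold change was 0.34 (limma adjusted p = 0.025), a call lost when any 1 high temperature sample was left out, when normal temperature sample 1 or 2 was, and with no filter on low values. Adjusted p ran from 0.011 to 0.077 over 12 alternatives. LOC_Os05g25770, the last of the 5, did not pass (limma adjusted p = 0.34). Genes of this list under the minimum were not tested, and their values moved both ways. LOC_Os07g03710 had 0, 0.06 and 0.03 FPKM in the high temperature samples, against 0.28, 0.26 and 0.28 FPKM in the normal temperature samples. KSL4 (LOC_Os04g10060) had 0.56, 0.53 and 0.53 FPKM in the high temperature samples, against 0.06, 0.10 and 0.11 FPKM in the normal temperature samples.

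No heat shock gene on the lists was among the 68. Of 11 small heat shock protein genes, 8 had a row, and HSP16.9C (LOC_Os01g04360) came nearest to the rule, with 10.14, 10.43 and 0 FPKM in the high temperature samples and 0 in each normal temperature sample. Its value of 0 in high temperature sample 3 kept it out, and it lies beside close copies of the gene, between which reads can be split. Of the 7 small heat shock genes tested, 3 rose and none fell, and all 3 were above 3 FPKM at normal temperature already. None of the 8 chaperone genes, the 21 heat shock factor and related genes or the 5 DREB factor genes with a row met the rule. HSFA3 (LOC_Os02g32590) had 10.08, 8.43 and 9.07 FPKM in the high temperature samples, against 0.95, 2.2 and 1.2 FPKM in the normal temperature samples. Values above 1 FPKM in normal temperature samples 2 and 3 kept it out. Of the 18 heat shock factor and related genes tested, 2 rose and 2 fell. Of the 7 alpha-amylase genes with a row, none met the rule either. AMY3D (LOC_Os08g36910), near 0 at normal temperature, had 0.74, 0.92 and 0.99 FPKM in the high temperature samples.

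Every chromosome held at least 1 of the 68 mRNAs. Chromosome 1 held 12, or 17.6% of them, and 13.4% of all mRNA rows. Chromosome 6 held 9, or 13.2% of them, and 8.30% of all mRNA rows, and 7 of the 9 were in the stretch described above. Chromosome 11 held 1, LOC_Os11g12300, and 6.48% of all mRNA rows. Chromosome 9 held 6, or 8.82%, and 5.65% of all mRNA rows. The other chromosomes held between 2 and 7. With 68 mRNAs in all, these counts are small and were not tested.

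**Figure D4:**
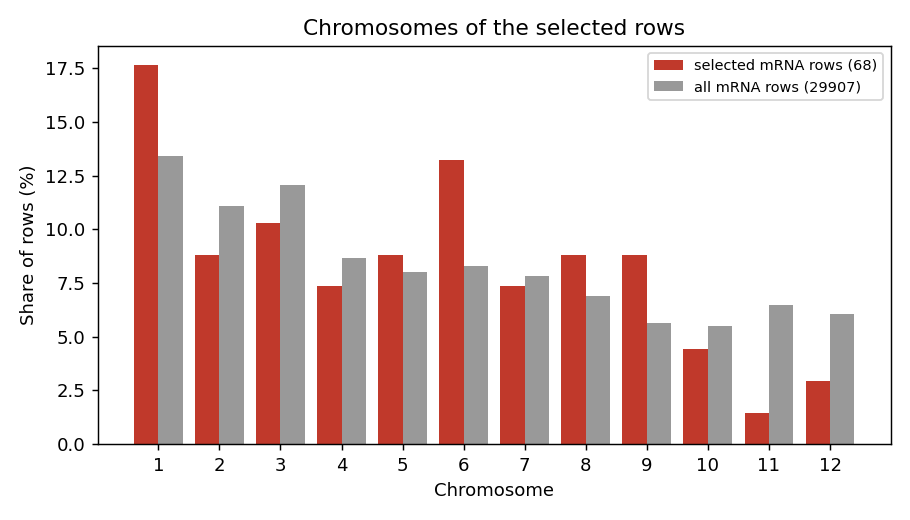
Share of rows (vertical, percent) on each of the 12 chromosomes (horizontal) for the 68 selected mRNA rows (red) and for all 29907 mRNA rows (grey). The red bar exceeds the grey one most on chromosome 6, where 7 of the 9 rows lie in 1 stretch, and chromosome 11 has 1 selected row.

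Apart from the chromosome 6 stretch, few of the 68 were close to one another. With locus numbers at most 100 apart counted as neighbours, 9 mRNAs formed 3 runs. The first run held 5 rows, LOC_Os06g31800 to LOC_Os06g32020, and the second held LOC_Os06g32160 and LOC_Os06g32240, which a step of 200 joins to the first. A step of 50 left 5 mRNAs in runs. The third run was the pair LOC_Os09g39940 and LOC_Os09g39960, described after its values were seen. LOC_Os09g39940 had 4.81, 3.57 and 4.66 FPKM in the high temperature samples, against 0.74, 0.73 and 0.60 FPKM in the normal temperature samples. LOC_Os09g39960 had 7.22, 6.46 and 7.16 FPKM in the high temperature samples, against 0.66, 0.86 and 0.79 FPKM in the normal temperature samples. In both rows sample 2 was the lowest of the high temperature samples. The row between them, LOC_Os09g39950, was listed at 0, 0 and 0.19 FPKM in the high temperature samples, against 0.04, 0 and 0 FPKM in the normal temperature samples.

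The rows next to the 68 that did not themselves meet the rule could be tested. Neighbours that met it, as inside the chromosome 6 stretch, were left out, while the shares of all rows tested include the 68. Of 123 such rows directly before or after one of the 68 in locus order, 65 reached the minimum level for testing. At high temperature, 12 of them were higher, or 18.5%, against 13.0% of all rows tested, and 16 were lower, or 24.6%, against 22.8% of all rows tested (limma, adjusted p under 0.05). Their median log2 fold change was -0.06, against -0.08 over all rows tested. The count of lower neighbours was 9 after trimmed-mean scaling, and 10 after quantile normalization, after rescaling without the 100 most abundant rows and without high temperature sample 2. Lower calls over all rows tested also fell from 3887 in these settings, to 2627, 3234, 3037 and 3296 in that order. With 2 rows on either side, 25 of 140 were higher and 29 were lower, or 17.86% and 20.7%. Among the 12 higher rows, LOC_Os02g47450 and LOC_Os05g39320 were at most 0.45 FPKM in each normal temperature sample. They reached the minimum only with their high temperature values. With no filter on low values, 17 of 122 rows directly before or after were higher and 16 were lower, or 13.9% and 13.1%. The neighbours thus moved in both directions. On the deposited scale with the minimum level, their higher share lay above that of all rows tested. Their lower share lay above it for the rows directly before or after, and below it with 2 rows on either side. For the same 65 rows, the lower share was 13.8% after trimmed-mean scaling and 15.4% after quantile normalization and after rescaling, so it also moved with the scaling. These differences were not tested.

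Single neighbours moved strongly in both directions. LOC_Os07g48020, one of the 68, had 3.42, 3.47 and 3.70 FPKM in the high temperature samples, against 0.70, 0.25 and 0.60 FPKM in the normal temperature samples. The next row, LOC_Os07g48030, had 0.94, 1.02 and 1.17 FPKM in the high temperature samples, against 11.33, 10.89 and 18.58 FPKM in the normal temperature samples (log2 fold change -2.80, standard error 0.21, limma adjusted p = 0.00062). These 2 adjacent rows thus ran in opposite directions. The genes LOC_Os04g52940 and LOC_Os02g36924, next to LOC_Os04g52950 and LOC_Os02g36940, also fell by 1.03 and fell by 1.02 on the log2 scale (limma adjusted p = 0.0023 and 0.0026).

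Beside LOC_Os05g33140, which had 14.51, 13.75 and 14.44 FPKM in the high temperature samples, against 0.06, 0.10 and 0.05 FPKM in the normal temperature samples, the row LOC_Os05g33130 rose as well. It had 2.69, 2.63 and 3.21 FPKM in the high temperature samples, against 0.88, 0.82 and 0.79 FPKM in the normal temperature samples, a log2 fold change of 1.07 (limma adjusted p = 0.00062). LOC_Os11g12330, next to LOC_Os11g12300, rose by 1.25 on the log2 scale (limma adjusted p = 0.0027). Reads shared between such neighbours were not tested. These neighbours were singled out after their values were seen.

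Markers of other grain tissues moved between the groups as well. None of the listed marker genes of starchy endosperm, embryo with aleurone, and green pericarp was among the 68. The 5 embryo and aleurone markers with a row summed to between 886 and 973 FPKM in the high temperature samples, against 160 to 683 FPKM in the normal temperature samples. The upper value is that of normal temperature sample 2, through LOC_Os04g46200 with 569 FPKM there, and the other normal temperature samples reached at most 192 FPKM. Of these markers, 3 passed the test as higher with all samples, and LOC_Os04g46200 did not (limma adjusted p = 0.11). The count was also 3 without normal temperature sample 2, though not necessarily of the same markers. The 5 green pericarp markers summed to between 115.5 and 159 FPKM in the high temperature samples, against 175 to 211 FPKM in the normal temperature samples, and 1 passed as lower. The 5 starchy endosperm markers summed to between 20878 and 21376 FPKM in the high temperature samples, against 22308 to 22845 FPKM in the normal temperature samples, and 4 passed as lower and 1 as higher. The one that was higher, LOC_Os10g26060, made up most of both sums. The 4 others summed to between 1145 and 1183 FPKM in the high temperature samples, against 3941 to 4078 FPKM in the normal temperature samples. No marker with a row was at 0 in all samples. The part of these shifts in the levels of the 68 mRNAs was not tested.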

How the data were processed

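Endosperm RNA of 6 samples was depleted of ribosomal RNA and sequenced in pairs, per the labels' protocols. HISAT2 2.0.4, StringTie 1.3.0, cutadapt 1.10 and FastQC 0.10.1 appear, with no role stated, in the submitters' processing notes. Neither the build nor the annotation nor strandedness is given in the sources used here. The authors deposited FPKM with 2 decimals, 1 column per sample, per the file headers. The authors' deposited correlation score for starch genes was not used, and no member occurs in that table or in the microRNA pairings. Columns summed to between 365035 and 380742 FPKM. In 8390 rows of low level, 19.5% of values were whole multiples of the row's lowest value (tolerance 0.1), so reads could not be recovered and depth is unknown.

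The rule was applied to the deposited values. Tests used limma 3.58.1 in R 4.3.3 on log2(FPKM + 1) with a variance trend, two-sided, over mRNA rows with a mean of at least 0.5 FPKM, with Benjamini-Hochberg adjustment over all rows tested, and were tested on simulated data. Fold changes on this scale understate the change of low rows. The locus LOC_Os10g22310 has 2 rows. Members, lists and tests were chosen with earlier results of these data known. Named members are the 15 highest, those in runs of 3 or more, on lists or in another deposited table, the 5 nearest inside each limit, and the 5 most and 5 least variable with a mean of at least 5 FPKM at high temperature. Named non-members are the 5 nearest outside each limit. Others were named after their values were seen, among them LOC_Os04g31330, LOC_Os01g67980, the pair on chromosome 9, the neighbours and the other list genes. Of 136 list symbols, 95 were found once in the RefSeq gene table (assembly ASM3414082v1), 94 of them on the expected chromosome, and with the 5 symbols added later 526 of 527 within-chromosome pairs kept their order. Alternatives changed the limits, scaling, pseudocount, filter, replicate block and samples used.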

Additional observations from a re-analysis of the deposited data

How the results depend on the processing

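The number of mRNAs taken by the rule follows its limits. It was 38 with an upper limit of 0.5 FPKM at normal temperature and 152 with 2 FPKM, and 36 with a lower limit of 5 FPKM at high temperature and 140 with 2 FPKM. Trimmed-mean scaling gave 79 rows and rescaling without the 100 most abundant rows 78, with all 68 among them, and quantile normalization gave 69, with 66 of the 68 among them. Leaving out 1 sample gave between 77 and 101 rows, since fewer values must then meet the limits. A step of 50 in the locus number left 5 mRNAs in runs in place of 9.

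Among neighbouring rows, higher calls were 10 to 12 without 1 sample and 25 with 2 rows on either side. Higher calls were 14 after trimmed-mean scaling, 13 after quantile normalization and 12 after rescaling. With no filter on low values, 17 of 122 neighbours were higher, or 13.9%, and 16 were lower. Lower calls were 10 to 13 without 1 sample, 9 after trimmed-mean scaling, 10 after quantile normalization and after rescaling, and 29 with 2 rows on either side. More rows enter with 2 on either side and with no filter. Lower calls over all rows tested fell from 3887 as well, to 2627 after trimmed-mean scaling, 3234 after quantile normalization and 3037 after rescaling. Without 1 sample they were between 3123 and 3296. The cause of these changes was not tested. For samples of the same number, deviations from the group means had correlations between -0.0171 and 0.00390. For samples of different numbers they were between -0.0227 and 0.0245. These values cannot tell whether samples of the same number share more than the number. A replicate block gave 1657 higher and 2910 lower rows over the whole table, and 12 higher and 10 lower neighbours. Of NCED3, ABA8OX2, PBZ1, CPS2 and the 5 neighbours with a printed call, CPS2 lost it in 6 of 12 alternatives, which include the fit with no filter on low values, and the others kept it in all 12. GA20OX2 stayed short of the threshold in all 12. Depth is unknown, so no limit of detection can be given for values near 0.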

Other observations

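By the same rule, 2 of 578 lncRNA rows, or 0.346%, were low at normal and present at high temperature. MSTRG.4961, an lncRNA of 313 bases on chromosome 11 with class code u, had 5.69, 4.66 and 5.49 FPKM in the high temperature samples against a listed 0 in each normal temperature sample. MSTRG.12452, an lncRNA of 943 bases on chromosome 4 with class code u, had 5.40, 4.39 and 4.46 FPKM in the high temperature samples, against 0.03, 0 and 0.03 FPKM in the normal temperature samples. The authors' deposited table lists both as up. By the mirrored rule there were 9 lncRNA rows. For mRNA rows the counts were 68 by the rule and 24 by the mirrored rule. The difference between the 2 kinds of RNA was not tested.

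Some list genes had a value above 1 FPKM in 1 high temperature sample and a listed 0 in the other 5 samples. LOC_Os12g42280 and LOC_Os02g47510, both on the list of hormone metabolism genes, had 2.61 and 2.89 FPKM in high temperature sample 2, and LOC_Os03g63970 of the same list had 1.47 FPKM there. HSP23.2 (LOC_Os04g36750), a small heat shock protein, had 13.85 FPKM in high temperature sample 3.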
